A study of Homo sapiens with 6 samples.

Results

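The spindle assembly checkpoint holds a dividing cell before anaphase until every chromosome is attached to spindle microtubules. The 10 genes described here encode its kinases (*TTK*, *BUB1*), the parts of the mitotic checkpoint complex and of its assembly (*BUB1B*, *BUB3*, *CDC20*, *MAD2L1*, *MAD1L1*), the pair that takes that complex apart (*TRIP13*, *MAD2L1BP*) and the MAD2 relative *MAD2L2*. They were chosen by symbol, with earlier results of these data known. All 10 were found among the 28395 genes of the count table and passed the filter that kept 14777 genes for testing.

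The counts come from bulk RNA sequencing of H146 (NCI-H146), an established human small-cell lung cancer (SCLC) cell line. Cells were transfected with a KIFC1 siRNA or with a scrambled negative control siRNA, and RNA was taken 2 days later, with 3 libraries per group. The count table gives the 3 KIFC1 siRNA libraries one shared knockdown name, and the siRNA sequence behind it is not given, so a response to loss of *KIFC1* and a response to that siRNA cannot be told apart. The same holds, in bulk RNA, for a change in the number of cells in mitosis and a change in RNA per cell.

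In mitosis, TTK (also called MPS1) phosphorylates the kinetochore scaffold KNL1, which brings in BUB1 and BUB3, and BUB1 then helps to recruit MAD1. Kinetochore-bound MAD1 converts MAD2 to a closed form that grips CDC20, and with BUBR1 (the product of *BUB1B*) and BUB3 this makes the mitotic checkpoint complex, an inhibitor of the anaphase-promoting complex/cyclosome (APC/C). The AAA+ ATPase TRIP13 reopens MAD2, using p31comet (the product of *MAD2L1BP*) as its adaptor, and so allows the complex to come apart. Most of these genes are transcribed mainly in G2 and M phase.

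The libraries held from 15392374 to 17754458 counts each, with mitochondrial genes at 8.34% to 13.1%. The neuroendocrine transcription factor gene *INSM1* had 10009 to 12809 counts per library. Of 9 markers of other cell types, the stromal genes *DCN* and *LUM* had at most 9 counts in any library and *COL1A2*, the highest, 113 to 197. The targeted gene itself, *KIFC1* (NCBI gene ID 3833), lies at 33391461 to 33409896 on chromosome 6 of GRCh38. Control replicates 1, 2 and 3 held 14, 4 and 14 counts of it, and the KIFC1 siRNA replicates 1, 1 and 0. It fell short of the filter on low counts and was added back. With no KIFC1 siRNA library above 3 counts its fitted fold change has no fixed size, and its adjusted p was 0.0739 (edgeR), or 0.00459 with the replicate number as a block. Of the 32-base words of its mRNA, 87.9% also occurred on alternate sequences of GRCh38, against 0% to 5.37% for the 10 checkpoint genes. How reads from such stretches were counted is not given in the sources used here, so these counts may not measure the level of *KIFC1*. The authors report lower KIFC1 after siRNA in SCLC cells by RT-qPCR and by immunoblot.

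A promoter word that recurs among G2 and M phase genes is the CHR (cell cycle genes homology region, written TTTGAA or TTCGAA), a binding element of the MuvB complexes. RefSeq promoter windows of GRCh38.p14, from 250 bases before to 50 bases after the annotated start, were matched for 8 of the 10 genes (not *TTK* and *BUB3*). Of these 8 genes 6 held a CHR word on either strand, against 19.5% of 27305 genes with a window. The words lying nearest the start of 5 of them are shown with the bases around them, in the direction of transcription, with the CHR word in capitals.
*TRIP13* (chr5:892875-892904, plus strand): tcgcgcggcagaTTCGAAgctagggcgggg
*BUB1* (chr2:110678045-110678074, minus strand): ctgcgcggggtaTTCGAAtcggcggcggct
*MAD2L1* (chr4:120066807-120066836, minus strand): tgcgtcgttactTTTGAAacgcttggcggg
*BUB1B* (chr15:40161034-40161063, plus strand): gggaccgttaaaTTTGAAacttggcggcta
*CDC20* (chr1:43358904-43358933, plus strand): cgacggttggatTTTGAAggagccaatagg
These words are printed because a gene that was called with the replicate block (*TRIP13*) and genes that were not called by any test (*BUB1*, *BUB1B*, *CDC20*) both carry a CHR word, with the TTCGAA spelling in *TRIP13* and *BUB1* and TTTGAA in *BUB1B* and *CDC20*. The sixth gene, *MAD2L1BP*, had its word on the reverse strand of one of its 2 windows, and *MAD1L1* and *MAD2L2* had none in theirs. The CCAAT word, read by the factor NF-Y, stood in the windows of 4 of the 8 genes, against 34.6% of 35116 windows. That share counts windows and not genes, and *MAD2L1BP* and *MAD2L2* had 2 windows each, so the comparison is not like for like. In *CDC20*, 2 copies of the CCAAT word flank the printed word. A match says only that the letters are there.

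*TTK*, *TRIP13* and *MAD2L1* were the checkpoint genes whose levels were higher with KIFC1 siRNA in every replicate number, and their groups did not overlap. In CPM, counts scaled to library size with the TMM method, *TTK* was higher by 1.53-fold, *TRIP13* by 1.30-fold and *MAD2L1* by 1.19-fold. None of the 10 genes passed an adjusted p under 0.05 in the edgeR test that compared the groups without regard to replicate number, where 0.697% of all genes tested did. Libraries with the same replicate number deviated together from their group means, and with that number as a block *TTK* and *TRIP13* passed. These 2 of 10 genes stand beside 2.75% of all genes that were higher and called with the block, and 0 of 10 were lower and called, beside 3.07%. Without an adjustment, 3 of the 10 were higher at p under 0.05 (4.72% of all genes) and 0 were lower (4.55%). Non-overlapping groups with the higher level under KIFC1 siRNA were seen for 7.99% of all genes, and with the lower level for 7.52%, against 3 and 0 of these 10. A higher level in all 3 replicate numbers was seen for 19.5% of all genes and a lower one in all 3 for 19.4%, again against 3 and 0 of the 10. Among lists described below, 7 of 13 APC/C substrates and separase were higher in all 3 and 2 were lower. For 20 G2/M markers these counts were 6 and 5, and for 20 S phase markers 2 and 4. They were 2 and 4 for 20 genes of kinetochore recruitment, and 0 and 3 for 18 of checkpoint silencing. The median log2 fold change of the 10 was 0.09, beside 0.01 over all genes tested. Because the 10 genes were chosen with earlier results of these data known, these shares describe them and test nothing.

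**Figure D1:**
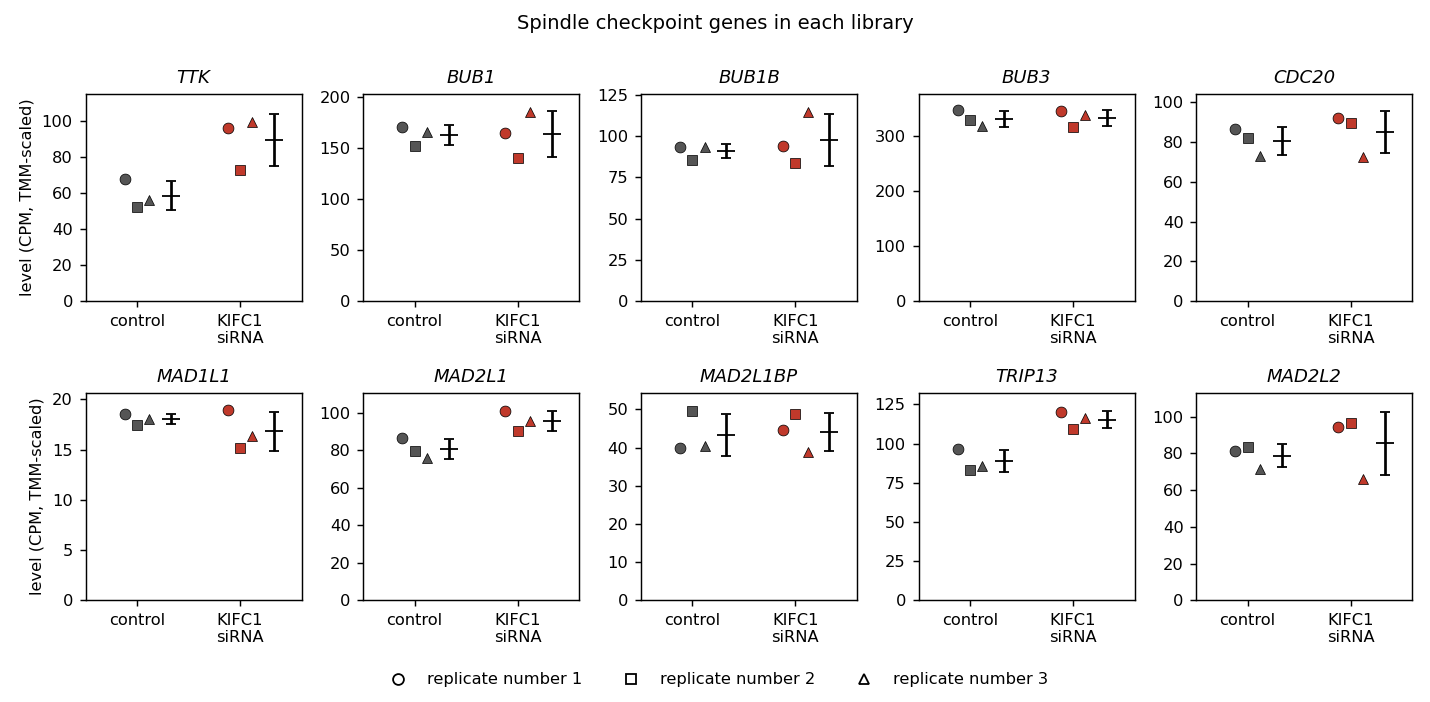
Level of each checkpoint gene in each library, in CPM (counts scaled to library size by TMM; each axis starts at 0), with control siRNA in grey and KIFC1 siRNA in red; marker shapes give the replicate number and bars the mean ± SD (n = 3). The red points lie above all grey ones for TTK, TRIP13 and MAD2L1, and the groups overlap for the other 7 genes.

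*TTK* (NCBI gene ID 7272; chromosome 6 of GRCh38, 80004649 to 80042527) encodes the kinase at the head of the pathway. Its level was 67.5, 52.2 and 55.9 CPM in control replicates 1, 2 and 3, and 95.9, 72.7 and 99.3 CPM with KIFC1 siRNA. The lowest KIFC1 siRNA library, replicate 2, thus lay above the highest control library, and replicate 2 was the lowest of its group in both groups. The means were 58.6 ± 7.99 and 89.3 ± 14.5 CPM (SD, n = 3), and edgeR put the log2 fold change at 0.61 with a standard error of 0.14 and an adjusted p of 0.0898. Within replicate numbers 1, 2 and 3 the log2 difference was 0.51, 0.48 and 0.83, so the third pair differed most. With the replicate block the standard error was 0.095 and the adjusted p 8.27e-05 (edgeR). Over the 13 alternatives that were run, the log2 fold change lay between 0.53 and 0.73 and the adjusted p between 8.27e-05 and 0.454, under 0.05 in 5 of them. Those 5 were the block, DESeq2, the fit with no filter, and the fits without KIFC1 siRNA replicate 2 (adjusted p = 0.0391 in edgeR) or replicate 3 (adjusted p = 0.0488). No 32-base word of the *TTK* mRNA occurred elsewhere in the genome. The authors already list *TTK* among the genes higher after KIFC1 knockdown, at cutoffs on p and on fold change.

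*BUB1* (NCBI gene ID 699; chromosome 2, 110637528 to 110678063), the second kinase, had nearly the same mean in both groups, 163.0 ± 9.85 CPM with control siRNA and 163.4 ± 22.6 CPM with KIFC1 siRNA (SD, n = 3). Its libraries ran from 152.1 to 171.2 CPM in the control group and from 140.0 to 185.0 CPM with KIFC1 siRNA, so the groups overlapped in full. The 95% interval of its log2 fold change reached from -0.26 to 0.26 (unadjusted), which leaves out a change of the size seen for *TTK*. As for *TTK*, replicate 2 was the lowest library in each group.

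**Figure D2:**
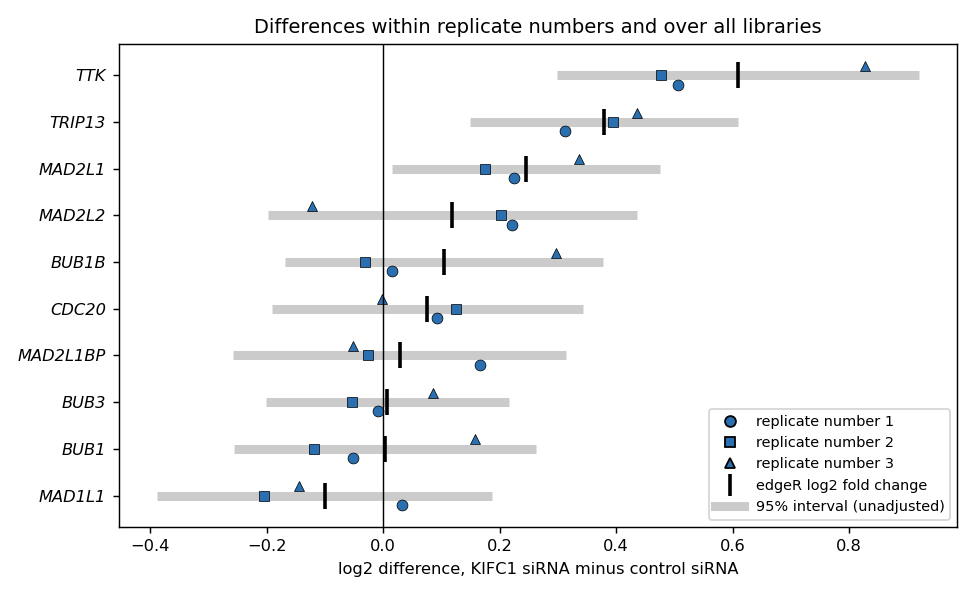
Log2 difference of KIFC1 siRNA minus control siRNA for each checkpoint gene, within replicate numbers 1, 2 and 3 (blue markers) and from edgeR over all 6 libraries (black tick, with its unadjusted 95% interval in grey). All 3 markers lie right of 0 for TTK, TRIP13 and MAD2L1; for the other 7 genes they fall on both sides.

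*TRIP13* (NCBI gene ID 9319; chromosome 5, 892884 to 919348) encodes the ATPase that opens MAD2. It stood at 96.6, 83.4 and 86.0 CPM in control replicates 1, 2 and 3, and at 120.0, 109.7 and 116.4 CPM with KIFC1 siRNA. Each KIFC1 siRNA library was above each control library, and the spread within a group was smaller than for *TTK*. The means were 88.7 ± 7.02 and 115.4 ± 5.27 CPM (SD, n = 3), which edgeR fitted as 0.38 on the log2 scale, with a standard error of 0.11 and an adjusted p of 0.175. The log2 differences within the replicate numbers were 0.31, 0.39 and 0.44. With the replicate block the adjusted p was 0.0051 (edgeR). That was the only one of 13 alternatives under 0.05, and over the others it ranged up to 0.697. Leaving out any 1 library kept the log2 fold change between 0.34 and 0.45.

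*MAD2L1BP* (NCBI gene ID 9587; chromosome 6, 43629540 to 43640941), whose product p31comet is the adaptor of TRIP13, did not follow this pattern. It had 39.8, 49.7 and 40.3 CPM in the control libraries and 44.7, 48.8 and 38.9 CPM with KIFC1 siRNA. Replicate 2 was the highest library of both groups, the reverse of the kinase genes. The 95% interval of the log2 fold change was -0.26 to 0.31 (unadjusted). The difference between *TRIP13* and *MAD2L1BP* within a library averaged 1.04 ± 0.270 on the log2 CPM scale with control siRNA and 1.39 ± 0.209 with KIFC1 siRNA (SD, n = 3). The groups overlapped, and the difference of 0.35 had p = 0.2 in a two-sided exact permutation test, adjusted p = 0.3 over the 6 measures compared within libraries.

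*MAD2L1* (NCBI gene ID 4085; chromosome 4, 120055623 to 120066848) encodes MAD2, the substrate that TRIP13 remodels. Its level was 86.6, 79.8 and 75.7 CPM with control siRNA and 101.1, 90.2 and 95.6 CPM with KIFC1 siRNA. The gap between the groups, from 86.6 to 90.2 CPM, was narrow. The log2 fold change of 0.25 (standard error 0.11) had an adjusted p of 0.497 in edgeR and 0.106 with the replicate block, and no alternative brought it under 0.05. Of the 32-base words of its mRNA, 15.0% occurred elsewhere on the primary chromosomes, 11.6% on chromosome 14. How reads from such stretches were counted is not given in the sources used here. *TRIP13* was higher relative to *MAD2L1* in each KIFC1 siRNA library than in any control library, by 0.14 on the log2 scale (exact permutation p = 0.1, the smallest that 3 against 3 allows, adjusted p = 0.2).

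For the other parts of the mitotic checkpoint complex and of its assembly, the libraries of the 2 groups overlapped. *BUB3* (NCBI gene ID 9184; chromosome 10, 123154402 to 123170467), the partner of BUB1 and BUBR1, had 332.3 ± 14.6 CPM with control siRNA and 334.0 ± 14.3 CPM with KIFC1 siRNA (SD, n = 3). *CDC20* (NCBI gene ID 991; chromosome 1, 43358981 to 43363203), the APC/C activator that the complex captures, had 80.4 ± 6.95 and 84.8 ± 10.6 CPM, and 25.2% of its words recurred on chromosome 9. *BUB1B* (NCBI gene ID 701; chromosome 15, 40161069 to 40221123) had 90.7 ± 4.35 and 97.6 ± 15.7 CPM. Its KIFC1 siRNA libraries spread from 83.8 to 114.6 CPM, with replicate 2 below the control range, replicate 3 well above it and replicate 1 just above it. *BUB1B* shares 240 exon bases with *PAK6* on the same strand, which is 5.38% of its merged exons. Their 95% intervals were -0.20 to 0.22 for *BUB3*, -0.19 to 0.34 for *CDC20* and -0.17 to 0.38 for *BUB1B* (log2, unadjusted). *MAD1L1* (NCBI gene ID 8379; chromosome 7, 1815795 to 2232945), which encodes the MAD1 that seeds closed MAD2, was the only one of the 10 with a negative log2 fold change, at -0.10 (95% interval -0.39 to 0.19). It had 18.0 ± 0.513 CPM with control siRNA and 16.8 ± 1.92 CPM with KIFC1 siRNA.

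*MAD2L2* (NCBI gene ID 10459; chromosome 1, 11674480 to 11691830) encodes REV7, a HORMA domain protein like MAD2 that serves DNA polymerase zeta and the shieldin complex. It had 81.1, 83.6 and 71.6 CPM with control siRNA. With KIFC1 siRNA, replicates 1 and 2 had 94.6 and 96.2 CPM, above all control libraries, and replicate 3 had 65.8 CPM, below all of them. On the log2 scale its fold change was 0.12 with a standard error of 0.15 (edgeR, adjusted p = 0.893), and it became 0.28 without KIFC1 siRNA replicate 3 (adjusted p = 0.135 in edgeR). *FBXO6* shares 876 of its exon bases on the opposite strand, and the strand setting of the count is not given in the sources used here. Of 6 partner genes of REV7 outside mitosis that were tested (*REV1*, *REV3L*, *SHLD1*, *SHLD2*, *RIF1*, *TP53BP1*), 3 were positive and 3 negative, and 0 had an unadjusted p under 0.05 in edgeR. The meiotic HORMA domain genes *HORMAD1* and *HORMAD2* had 0 to 2 counts per library. The autophagy genes *ATG13* and *ATG101*, whose products carry the same fold, were both tested and both negative, with a median log2 fold change of -0.09.

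Levels between the genes were compared per kilobase of merged exons (RPKM, GENCODE 44 gene models). In the control libraries *BUB3* and *CDC20* led, at 40.7 ± 1.79 and 40.0 ± 3.46 RPKM (SD, n = 3), and these neighbours did not differ beyond their spread. *TRIP13*, *BUB1*, *MAD2L1BP* and *BUB1B* followed from 26.7 down to 20.3 RPKM. *MAD2L1*, *MAD2L2* and *TTK* lay close together, at 14.6 ± 0.993, 14.5 ± 1.17 and 12.8 ± 1.74 RPKM. *MAD1L1* was the lowest by a wide margin, at 2.59 ± 0.0737 RPKM. It shares 3004 exon bases, 43.2% of its merged exons, with a gene model without a symbol on the same strand. Whether the count used that gene model is not given in the sources used here. With KIFC1 siRNA *TTK* had 19.5 ± 3.16 RPKM and its mean passed those of *MAD2L1* (17.3 ± 0.995) and *MAD2L2* (15.8 ± 3.15), though its range of libraries overlapped both of theirs. The order depends on the gene model: per kilobase of coding sequence *MAD2L1* came second, at 131.2 CPM per kilobase. Its 3' UTR takes up 4495 bases, where its merged exons hold 5517. *TTK* and *MAD1L1* were the lowest genes by coding length, at 22.8 and 8.36 CPM per kilobase.

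To compare *TTK* with mitotic genes in general, its log2 CPM was set against the mean of 20 G2/M markers in the same library. The markers themselves had a mean log2 CPM of 7.27 ± 0.0640 with control siRNA and 7.29 ± 0.0981 with KIFC1 siRNA (SD, n = 3; exact permutation p = 0.9, adjusted p = 0.9). Relative to them *TTK* stood at -1.26, -1.52 and -1.42 in the control libraries and at -0.75, -0.99 and -0.73 with KIFC1 siRNA. The groups did not overlap, and the difference of 0.58 was close to the fold change of *TTK* itself. Its exact permutation p was 0.1 (two-sided), the smallest that 3 against 3 allows, and 0.2 after adjustment over the 6 measures. Against *BUB1*, *TTK* stood at -1.48 ± 0.123 with control siRNA and at -0.87 ± 0.0825 with KIFC1 siRNA on the log2 CPM scale (SD, n = 3), with differences of 0.56, 0.60 and 0.67 in the 3 replicate numbers. These were closer to each other than the differences of *TTK* alone. The exact permutation p was again 0.1, adjusted p = 0.2.

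**Figure D3:**
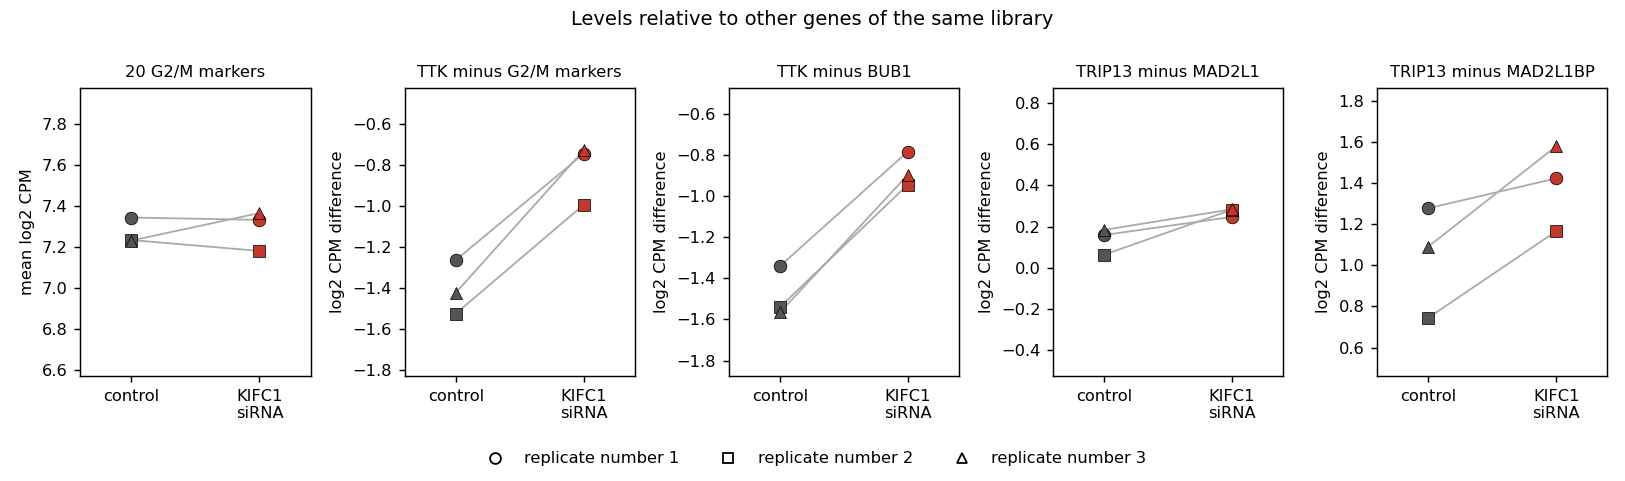
Mean log2 CPM of the 20 G2/M markers, and the log2 CPM of TTK or TRIP13 minus that of the markers or of another gene in the same library; lines join libraries with the same replicate number, and every panel spans 1.4 log2 units. The lines rise in all 3 replicate numbers in the 4 panels with TTK or TRIP13, with no overlap of the groups in the first 3 of those, while the G2/M markers go both ways.

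The 20 G2/M markers did not move together. Of them 13 had a positive and 7 a negative log2 fold change (median 0.07). *KIF20A*, a mitotic kinesin gene, had a log2 fold change of 0.25 (standard error 0.11) and *PRC1*, a gene of the central spindle, -0.22 (standard error 0.099). These 2 genes had unadjusted p of 0.0380 and 0.0466 in edgeR, and neither passed the adjustment. The proliferation marker *MKI67*, named after its value was seen, fell with the replicate block (log2 fold change -0.33, adjusted p = 0.00914 in edgeR) and had an adjusted p of 0.689 without it. It was lower in all 3 replicate numbers, from 477.7 ± 73.4 to 387.2 ± 110.4 CPM (SD, n = 3). Of 20 S phase markers, 9 were positive and 11 negative (median -0.00), and 0 had an unadjusted p under 0.05 in edgeR.

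Genes that act with the checkpoint were read from 3 further lists. Of 20 tested genes that bring the checkpoint to kinetochores (KNL1, the NDC80 and RZZ complexes, the chromosomal passenger complex and others), 8 were positive and 12 negative, with log2 fold changes from -0.21 to 0.17. Of 18 tested genes of checkpoint silencing, among them the phosphatase genes of PP1 and PP2A, 8 were positive and 10 negative (-0.20 to 0.15). No gene of either list had an unadjusted p under 0.05 in edgeR. Of 13 APC/C substrates and separase, 9 were positive and 4 negative (median 0.12). *NEK2*, a centrosomal kinase gene in that list, had the lowest p, at 0.28 on the log2 scale with a standard error of 0.12 (edgeR, adjusted p = 0.486).

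Profiles over the 6 libraries were also compared by the root mean square difference of log2 CPM, each gene centred on its own mean, among 11757 genes with a mean log2 CPM of at least 2. Closest to *TTK* were *PRR11* (0.078), *BPNT1* (0.085) and *AP2B1* (0.089), where a gene with a flat profile would lie at 0.35. Their log2 fold changes were 0.48, 0.57 and 0.49. The profiles include the difference between the groups, so genes picked this way have similar fold changes by selection. Shared regulation was not tested. *PRR11* is a cell cycle-regulated gene, *BPNT1* encodes a nucleotidase and *AP2B1* a clathrin adaptor subunit. Closest to *TRIP13* were *DACH2* (0.032), *ACOXL* (0.034) and *SNAP23* (0.043), against 0.20 for a flat profile. None of these 6 genes is in the lists above.

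Words of the 3' UTRs were counted in GENCODE 44 canonical transcripts. The word GCAACC, picked out earlier by a scan of these same libraries, occurred once in the 3' UTRs of *TTK* and *MAD2L2* and in none of the other 8 checkpoint genes, *TRIP13* and *MAD2L1* included. Among 12974 tested genes with a 3' UTR of at least 50 bases, 23.2% held the word. The second word from that scan, GAGATCT, was in 0 of the 10 genes, against 8.96% of all. Since both words were found on these libraries, their presence supports nothing about the genes here, and their part in the rise of *TTK* was not tested.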

How the data were processed

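H146 cells were profiled by RNA sequencing with 3 KIFC1 siRNA and 3 control siRNA libraries. The authors aligned reads to GRCh38 with HISAT2 (2.2.1) and counted them with featureCounts (2.0.8), and the deposited values are whole read counts per NCBI gene ID, not normalized. The annotation, strand setting and treatment of multi-mapping reads are not given in the sources used here. The deposited totals set the counting precision of each library.

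The groups were compared by the quasi-likelihood test of edgeR 4.0.16 (R 4.3.3), with TMM scaling and robust fitting, on the 14777 genes that filterByExpr kept, *KIFC1* added. Adjusted p-values are Benjamini-Hochberg values over these genes, called under 0.05. Standard errors were derived from the F statistic, and log2 CPM used a prior count of 2. The biological coefficient of variation was 13.1%. Symbols were matched through RefSeq for 27745 of 28395 IDs; the others held 0.0618% of counts. *SHLD3* was not matched. The fit without the replicate block was run on simulated data of independent libraries. The blocked fit was not tested in this way. The alternatives were limma-voom (3.58.1), DESeq2 1.42.0, its size factors in edgeR, scaling by library size alone, a minimum of 10 counts per library, no filter, the replicate block and leaving out each library. Figures used matplotlib 3.10.9.

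The labels call the libraries biological replicates and the methods name separate wells; beyond that their origin is not given, so p-values measure the spread between these libraries. Both groups use the same replicate numbers. Once group means were subtracted, libraries with the same number correlated at 0.484, 0.414 and 0.491 across 11758 genes. Those with different numbers correlated at -0.457 to 0.0234. Subtracting the mean of only 3 libraries pulls these values down when the same-number ones are positive. The numbers were taken as pairs from these same counts, and the blocked value is given where it changes a call. No 2 libraries held identical counts.

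The genes, lists and tests were chosen with earlier results of these data known. Named are the 10 checkpoint genes, *KIFC1*, genes of the other lists with an unadjusted p under 0.05 (at most 5 a list, lowest p first), and the 3 profiles closest to *TTK* and to *TRIP13*; other names were added after values were seen. Some genes, and the lists that hold them, are not reported here. The comparisons of *TTK* with *BUB1* and of *TRIP13* with *MAD2L1* were added likewise.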

Additional observations from a re-analysis of the deposited data

How the results depend on the processing

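The count of genes called among all genes, 103 (48 higher, 55 lower), rose to 270 with DESeq2, 265 with no filter and 861 with the replicate block, and ran from 24 (without control siRNA replicate 3) to 468 (without KIFC1 siRNA replicate 3) with 1 library left out. Of the 10 checkpoint genes, 0 were called at first, 1 with DESeq2, 1 with no filter, 2 with the replicate block, and 0 to 1 with 1 library left out, where the gene was *TTK* without KIFC1 siRNA replicate 2 or 3. The block changed no call of the other 8 checkpoint genes. The median log2 fold change of all 10 stayed positive, from 0.030 (without KIFC1 siRNA replicate 1) to 0.14 (without KIFC1 siRNA replicate 3). *TTK* relative to G2/M markers stayed between 0.52 and 0.67 and *TRIP13* relative to *MAD2L1BP* between 0.21 and 0.47 with 1 library left out. Scaling cancels within a library, and averaging within replicate numbers gives the same mean, so these other alternatives could not move the differences. The sign-flip test over replicate numbers gave 0.25 for both, its smallest value. Log2 fold changes near 0 changed sign. That of *BUB1* (0.0036) was -0.00040 with DESeq2 and with its size factors, -0.0090 with library size only, -0.0034 with no filter, -0.0038 with limma-voom, -0.0032 with the replicate block, and -0.096 to 0.098 with 1 library left out. That of *BUB3* (0.0072) was -0.0046 with library size only, -0.00080 with no filter, and -0.022 to 0.042 with 1 library left out. With 1 library left out, *BUB1B* ran from -0.028 (without KIFC1 siRNA replicate 3) to 0.20 and *MAD2L1BP* from -0.055 (without KIFC1 siRNA replicate 2) to 0.14. None of these 4 genes had an adjusted p under 0.05 in any alternative. DESeq2 gave *KIFC1* no adjusted p. The cause of these shifts was not tested.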

Other observations

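Some markers of cell identity were read beside the checkpoint genes. *NCAM1*, a neural adhesion molecule gene, went from 243.4 to 181.6 CPM (mean, n = 3), and fell when the replicate number was a block (adjusted p = 0.137 without the block and 0.000646 with it, edgeR). *CHGA*, which encodes a secretory granule protein, gave 145, 818 and 482 counts in KIFC1 siRNA replicates 1, 2 and 3, where control replicates gave 147, 104 and 142. In CPM all 3 KIFC1 siRNA libraries lay above the control range, replicate 1 by the least (9.26 CPM, where the highest control library had 8.82). It was called in neither edgeR fit, with an adjusted p of 0.436 without the block and 0.482 with it. *TTK*, *TRIP13* and *MAD2L1*, like *CHGA*, were higher in all 3 replicate numbers, as were 19.5% of all genes tested. Of 9 markers of stromal, immune and endothelial cells, 4 passed the filter on low counts (3 positive, 1 negative), and 0 of these had an unadjusted p under 0.05 in edgeR. The part of these markers in the levels of the checkpoint genes was not tested.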
